A study of Mus musculus with 6 samples.

Results

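CXCR3 is the chemokine receptor of activated T cells and NK cells, and CXCL9, CXCL10 and CXCL11 are its interferon-induced ligands. The transcripts of these 3 ligands and of the receptor were followed across 6 mouse heart transplants. They were measured by all probe sets assigned to Cxcl9, Cxcl10, Cxcl11 or Cxcr3: 5 of the 22690 probe sets on the array, with 1 each for Cxcl9, Cxcl10 and Cxcr3 and 2 for Cxcl11. The 4 genes were chosen as a receptor and its ligands, with earlier results of the same arrays known, and not by a threshold on their signals. Total RNA of each graft group was measured on 1 oligonucleotide array. The ABH4 allograft came from mice given 4-amino tetrahydrobiopterin, an antagonist of the nitric oxide synthase cofactor, at 50 mg/kg every 8 h. The BH4 allograft came from mice given tetrahydrobiopterin, that cofactor itself, at 50 mg/kg every 8 h. The CsA allograft came from mice given cyclosporin A, a calcineurin inhibitor that blocks T cell activation, at 15 mg/kg every 24 h. The NIL allograft came from mice given N-imino ethyl-L-lysine, an inhibitor of inducible nitric oxide synthase, at 5 mg/kg every 8 h. An allograft and a syngraft from untreated mice were the controls. All 6 tissues were transplanted hearts. The sources used here give neither strain, age nor day of removal, and do not say whether mice were pooled on an array.

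Interferon-gamma from activated lymphocytes acts on endothelium, macrophages, fibroblasts and muscle through the receptor chains IFNGR1 and IFNGR2 and the kinases JAK1 and JAK2. That cascade induces the 3 ligands, which draw CXCR3-bearing T cells and NK cells into tissue, where those cells release more interferon-gamma. CXCL9 depends most closely on interferon-gamma, whereas CXCL10 and CXCL11 are also induced by type I interferon, and CXCL10 by tumour necrosis factor. All 3 ligands are well known from rejecting heart grafts. In the C57BL/6 mouse the Cxcl11 reading frame is disrupted, and RefSeq lists Cxcl11 of the GRCm38.p6 assembly, which is C57BL/6J, as a transcribed pseudogene, so a Cxcl11 signal measures RNA and need not stand for protein.

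No difference reported here has a replicate against which it can be checked, and no p-value was computed, because each group had 1 array. Signals are arbitrary units after rescaling each array to a common median, and values below 34.8, the 30th percentile of all signals, were treated as a floor. The median signal as deposited was between 77.7 and 88.5 per array. The 8 heart muscle genes examined were well above the floor on all 6 arrays, with Myh6, the main heart myosin, Actc1, cardiac actin, and Nppa, the atrial peptide, at 3161 or above. None of the 8 was 1.5-fold different in any comparison with the untreated allograft, and no library went against the label of heart. The BH4 array stood apart: Bpifa2, a salivary gland protein, had a signal of 5806 on it, against 18.2 in the untreated allograft and 14.9 to 56.2 on the other 4 arrays. The 4 salivary genes examined summed to 10479 on the BH4 array and to between 146 and 444 on the other 5. The part of that tissue in the BH4 values below was not tested, and the ranges of Cxcl11 and Cxcr3 over allografts are also given without this array.

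The 3 ligand genes lie close together on mouse chromosome 5, in the order Cxcl9, Art3, Cxcl10 and Cxcl11 followed by Nup54, and Cxcr3 lies on the X chromosome. The start regions of Cxcl10 and Cxcl9 are shown because both transcripts were high in all 5 allografts and low in the syngraft. That of Cxcr3 is shown because its pattern differed from theirs. The promoter source used here held no start region for Cxcl11, so none is shown. RefSeq's GRCm38.p6 gives 250 bases before and 50 bases after each start, all on the minus strand: Cxcl10 at chr5:92348840-92349139, Cxcl9 at chr5:92328030-92328329 and Cxcr3 at chrX:101734098-101734397. Capitals mark matches to any of 5 motifs, searched on both strands.
Cxcl10: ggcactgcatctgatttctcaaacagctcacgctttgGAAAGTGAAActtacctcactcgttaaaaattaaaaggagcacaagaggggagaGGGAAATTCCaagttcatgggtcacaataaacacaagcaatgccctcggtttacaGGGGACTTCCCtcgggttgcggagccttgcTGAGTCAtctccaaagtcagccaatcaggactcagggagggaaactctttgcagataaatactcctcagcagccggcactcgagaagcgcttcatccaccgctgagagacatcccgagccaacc
Cxcl9: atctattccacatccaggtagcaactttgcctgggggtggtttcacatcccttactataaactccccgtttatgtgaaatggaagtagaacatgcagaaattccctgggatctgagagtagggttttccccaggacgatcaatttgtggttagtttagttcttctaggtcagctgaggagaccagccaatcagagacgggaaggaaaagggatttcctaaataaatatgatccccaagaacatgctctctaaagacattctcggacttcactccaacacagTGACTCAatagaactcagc
Cxcr3: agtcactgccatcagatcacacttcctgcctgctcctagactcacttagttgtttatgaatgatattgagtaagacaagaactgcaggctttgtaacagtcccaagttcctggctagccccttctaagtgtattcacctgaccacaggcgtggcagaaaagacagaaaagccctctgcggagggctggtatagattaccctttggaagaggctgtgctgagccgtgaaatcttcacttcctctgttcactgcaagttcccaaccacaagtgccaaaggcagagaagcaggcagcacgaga

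The motifs were the interferon-stimulated response element (GAAA, any 2 bases, GAAA), the interferon-gamma-activated site (TTCNNNGAA), the NF-kB site (by its consensus), the AP-1 site (TGANTCA) and the T-box site (AGGTGTGA). The Cxcl10 window held 1 interferon-stimulated response element, GAAAGTGAAA, starting 213 bases before the start. It also held NF-kB matches starting 159, 104 and 103 bases before the start, of which the last 2 overlap, and an AP-1 match, TGAGTCA, 74 bases before it. The Cxcl9 window held only an AP-1 match, TGACTCA, downstream of the start, and the Cxcr3 window held no match to the 5 motifs. Among 32851 promoter windows of the same length, 3.44% held the interferon-stimulated response element, 8.30% the interferon-gamma-activated site, 8.46% the NF-kB site, 7.81% the AP-1 site and 1.28% the T-box site. A match is a string of letters and not a measured binding site, and a window without one says nothing of elements outside it or written differently.

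Cxcl9 was bright in all 5 allografts. Its signal was 4265 with ABH4, 3928 with BH4, 2498 with CsA and 3712 with NIL, against 3938 in the untreated allograft and 159 in the syngraft. The CsA value was the lowest of the 5 allografts, and it still lay 15.7-fold above the syngraft.

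Cxcl10 varied least among allografts. It had signals of 1749 with ABH4, 1488 with BH4, 1284 with CsA and 1222 with NIL, against 1441.5 in the untreated allograft and 77.9 in the syngraft. The highest allograft value was 1.43 times the lowest, and the lowest was 15.7-fold above the syngraft.

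Cxcl11 was read by 2 probe sets that differed in brightness. The brighter one gave 1017 with ABH4, 506 with BH4, 545 with CsA and 693 with NIL, against 924 in the untreated allograft and 26.5, below the floor, in the syngraft. The BH4 and CsA values were the lowest among allografts, and the highest was 2.01 times the lowest, or 1.87 times without the BH4 array. The dimmer probe set read 28.7 with ABH4, 35.1 with BH4, 13.8 with CsA and 26.2 with NIL, against 46.1 in the untreated allograft and 14.1 in the syngraft. Only the BH4 and untreated allograft values of that probe set were above the floor, so it carried little information, and Cxcl11 below means the brighter probe set.

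Cxcr3, the receptor, had signals of 266 with ABH4, 174 with BH4, 106 with CsA and 280.1 with NIL, against 252 in the untreated allograft and 64.5 in the syngraft. It varied most among allografts, 2.65 times from the lowest, CsA, to the highest, NIL, with or without the BH4 array. In order of level the arrays ran from NIL through ABH4 and untreated allograft to BH4, CsA and syngraft. NIL, ABH4 and untreated allograft lay within 1.11 times of each other, and whether they differ cannot be told from 1 array each. The plot of signals by array shows the 3 ligands as a step between allografts and syngraft and the receptor as a graded series.

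**Figure D1:**
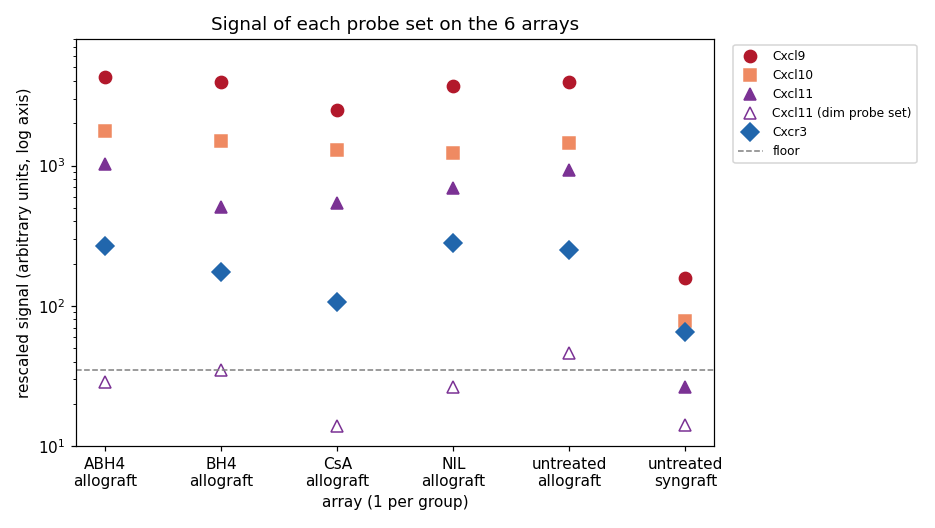
Rescaled signal (log axis, arbitrary units) of the 5 probe sets on each of the 6 arrays, 1 array per group; open triangles are the dimmer Cxcl11 probe set and the dashed line is the floor at 34.8. The ligands lie between 506 and 4265 in the allografts and at 159 or below in the syngraft, whereas Cxcr3 ranges from 106 to 280.1 among allografts.

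The comparison of untreated allograft with syngraft asks what accompanies a donor-recipient difference. Each of the 4 exceeded its syngraft level by 2-fold or more in the untreated allograft, where 6.87% of the 12393 genes measured did and 4.81% lay 2-fold or more below it. The median of the 4 log2 differences was 4.42, against 0.00 for all genes. Cxcl11 was at least 26.6-fold higher, Cxcl9 24.8-fold and Cxcl10 18.5-fold, and they ranked the sixth, the eighth and 18 from the top among all genes. Cxcr3 was 3.90-fold higher and ranked 211. The neighbours of the ligand cluster differed less: Art3, an ADP-ribosyltransferase gene whose annotated span covers Cxcl10 and Cxcl11, had a log2 difference of 1.56, and Naaa and Sdad1 on the Cxcl9 side had 1.52 and 1.30. On the other side, Nup54, a nuclear pore gene, and Scarb2, a lysosomal membrane gene, had 0.01 and 0.09. In a bulk graft, more cells of a type and more RNA per cell cannot be told apart, here and throughout.

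Most of the interferon-gamma signalling genes examined were higher in the allograft as well, most of all the cytokine itself. Ifng, which encodes interferon-gamma, had a signal of 586 in the untreated allograft and was below the floor in the syngraft at 13.0, so it was higher by 16.8-fold or more. Of 14 measured genes of interferon-gamma signalling, 9 were higher by 2-fold or more and 0 lower by as much, with a median log2 difference of 1.63. Socs1, the feedback inhibitor of JAK signalling, was at least 11.6-fold higher, and Irf1, an interferon-induced transcription factor, was 5.43-fold higher. Jak2 was 1.98-fold higher. Jak1 and Ifngr2 had log2 differences of 0.13 and 0.20, and Ifngr1 had -0.55, with a signal of 350.0 in the untreated allograft and 514 in the syngraft.

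Of 7 genes of tumour necrosis factor and NF-kB input, 2 were at least 2-fold higher in the untreated allograft and 0 lower (median log2 difference 0.78). These were Tnf, the cytokine, at 2.66-fold and Tnfaip3, an inhibitor that NF-kB induces, at 2.22-fold. Nfkbia, the inhibitor that holds NF-kB in the cytoplasm, was 1.90-fold higher, and Rela, an NF-kB subunit, had a log2 difference of 0.10. Nfkb1 was not analysed here.

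Genes that induce or accompany CXCR3 on lymphocytes were counted next. Of 15, 7 exceeded the syngraft by 2-fold or more and 0 lay that far below it (median log2 difference 0.60). Tbx21, which encodes the Th1 factor T-bet that drives Cxcr3 expression, had a signal of 125 in the untreated allograft and one of 28.5, under the floor, in the syngraft, so it was at least 3.58-fold higher. Il2rb, the shared interleukin-2 and interleukin-15 receptor chain, was at least 11.5-fold higher, Il18r1, an interleukin-18 receptor chain, at least 4.69-fold, and Il12rb1, an interleukin-12 receptor chain, at least 2.17-fold. Runx3 and Il12b were lower, with log2 differences of -0.47 and, with the untreated allograft at the floor, -0.59 or below. In the syngraft 8 of the 15 were at the floor.

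Of 16 measured genes of signalling below chemokine receptors, 5 were at least 2-fold higher and 0 lower (median log2 difference 0.43). Coro1a, an actin regulator of lymphocytes, was 5.27-fold higher, Rgs1, which turns off G protein signals in lymphocytes, at least 4.99-fold, and Rac2, the GTPase of blood cells, 3.40-fold. Zap70, a T cell kinase, and Arrb1, an arrestin, went the other way, with log2 differences of -0.34 and -0.44. Zap70 read 264 in the untreated allograft and 334 in the syngraft. The genes that process or bind the ligands did not share one direction: 1 of 7 was at least 2-fold higher and 1 at least 2-fold lower (median -0.18). Sdc4, a heparan sulfate proteoglycan that can hold chemokines, was 2.27-fold higher, and Mmp9, a protease, was 5.78-fold lower. Ackr2, a scavenger receptor of CC chemokines, was 1.75-fold lower. Ackr3, a scavenging receptor of CXCL11, had a log2 difference of -0.16. Dpp4, the peptidase that shortens all 3 ligands, read 40.9 in the untreated allograft, near the floor, and 2.07, below it, in the syngraft.

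Other chemokines of related classes ran both ways. Of 12 other measured CXC, CX3C and XC chemokines, 3 were higher by 2-fold or more in the untreated allograft and 5 lower by as much (median log2 difference -0.75). Xcl1, a lymphocyte product that draws dendritic cells, was at least 5.73-fold higher. Cxcl14 was 6.50-fold lower, Cxcl12, the stromal ligand of CXCR4, 3.39-fold lower, and Pf4, a platelet chemokine that has been described as a further CXCR3 ligand, 2.88-fold lower. Of 6 other receptors of these classes, 0 were at least 2-fold higher and 1 was lower. Cxcr6, found on effector T cells, was 1.85-fold higher, Cx3cr1, the fractalkine receptor of monocytes, 3.93-fold lower, and Xcr1, a dendritic cell receptor, 1.41-fold lower.

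The CsA comparison asks what calcineurin inhibition leaves of this axis. Cxcr3 was 2.38-fold lower in the CsA allograft than in the untreated one, whereas Cxcl10 stayed close to it. Of the 4 genes 1, Cxcr3, was at least 2-fold lower, where 4.06% of all genes were and 3.21% were at least 2-fold higher, and 3 were at least 1.5-fold lower, where 12.2% were. The log2 difference was -0.66 for Cxcl9, -0.17 for Cxcl10, -0.76 for Cxcl11 and -1.25 for Cxcr3 (median -0.71, against 0.00 for all genes). Of all genes 2.23% were at least as low as Cxcr3, and 34.7% were at least as low as Cxcl10. The deposited medians of these arrays differed by 0.19 on the log2 scale. On the deposited values without rescaling the differences were -0.47, 0.02, -0.58 and -1.07 in the same order of genes, so that Cxcl9 and Cxcl11 were then less than 1.5-fold lower and Cxcl10 changed sign. After quantile normalization they were -0.42, 0.09, -0.51 and -1.13.

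Most T cell and NK cell markers were lower on the CsA array. Cd3d and Cd3g, signalling chains of the T cell receptor, were lower by 14.2-fold or more and by 8.10-fold than in the untreated allograft, and Cd3e, a further chain, had a log2 difference of -3.33 with the CsA array at the floor. The 7 T cell genes summed to 197 with CsA, with 5 at the floor, against 1819 in the untreated allograft, where 1 was at the floor, and 106 in the syngraft, where all 7 were. The 4 measured NK cell genes summed to 355 with CsA, against 927 in the untreated allograft and 168 in the syngraft. Among NK receptor chains Klrc1 was lower by 3.39-fold or more with CsA, Klrd1 by 2.91-fold and Klrk1 by 2.53-fold. Ncr1, the NK activating receptor NKp46, had a log2 difference of -0.40, smaller in size than those of Cxcl9 and Cxcl11, and Cd4 was at the floor on both arrays. The 4 cytotoxic granule genes summed to 630 with CsA, against 6435 in the untreated allograft and 210 in the syngraft, with Gzma, Gzmb and Nkg7 lower by 13.7-fold, 11.2-fold and 9.20-fold. The part of these cells in the Cxcr3 difference was not tested.

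Genes of the interferon-gamma and tumour necrosis factor pathways were mostly lower with CsA, in unequal measure. Ifng had a signal of 102 with CsA, against 586 without, and was 5.72-fold lower. Of the 14 interferon-gamma signalling genes 5 were at least 2-fold lower and 0 higher (median log2 difference -0.80). These 5 were Ifng, Cd74, Ptpn2, Socs3 and Ptpn6, so the count is not one of inducers of the ligands alone. Cd74, the class II invariant chain, was 2.51-fold, Irf1 1.93-fold and Socs1 1.88-fold lower. Ifngr1 and Ifngr2 had log2 differences of 0.43 and 0.15, Jak1 and Jak2 -0.12 and -0.10. Tnf was 2.57-fold lower and Ikbkb, a kinase that activates NF-kB, 1.63-fold lower. Among the Th1 genes 4 of 15 were lower by 2-fold or more and 0 higher (median log2 difference -0.63). Il2rb was 6.56-fold, Il18r1 at least 4.69-fold, Tbx21 3.22-fold and Il12rb1 1.59-fold lower. Of the 16 signalling genes, 4 were at least 2-fold lower and 0 higher (median log2 difference -0.35), including Rac2 at 3.71-fold and Coro1a at 2.83-fold. Zap70 was level between these arrays, with a log2 difference of -0.0033.

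Other chemokine genes ran both ways with CsA: 4 of 12 were at least 2-fold higher and 2 lower. Xcl1 was 5.64-fold lower, whereas Pf4 was 2.96-fold, Cxcl14 2.67-fold and Cxcl12 2.14-fold higher. Cx3cr1 was 4.62-fold and Xcr1 2.03-fold higher. Cxcr6 was 1.65-fold lower. Among ligand-processing genes Mmp9 was 2.25-fold higher and Sdc4 2.61-fold lower, and Ackr3 had a log2 difference of 0.56.

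**Figure D2:**
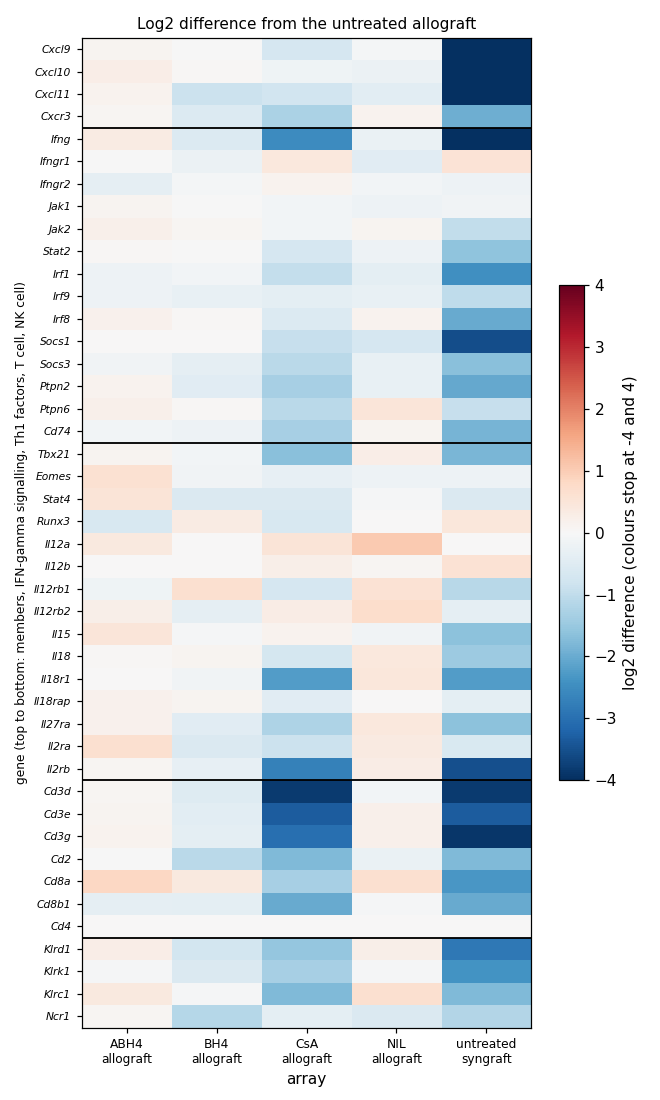
Log2 difference of each array from the untreated allograft, as colour, for the 4 genes, the interferon-gamma signalling list, the Th1 list and the T cell and NK cell markers, with values below the floor set to it and colours that stop at -4 and 4. The CsA column is close to white for Cxcl10 (-0.17), pale for Cxcl9 and Cxcl11 and dark for Cd3d (-3.83) and Cd3e (-3.33), whereas the syngraft column is dark for both sets.

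Set against the syngraft, the CsA allograft kept ligand transcripts far above it. Cxcl10 was 16.5-fold, Cxcl9 15.7-fold and Cxcl11 at least 15.7-fold higher in the CsA allograft, and they ranked the second, the third and the fourth highest among all 12393 genes, behind Gbp6, an interferon-induced guanylate-binding protein. Cxcr3 was 1.64-fold higher and ranked 582. Of the 4 genes 3 were at least 2-fold higher, where 2.28% of all genes were. On the log2 scale the CsA allograft kept 96.0% of the difference between untreated allograft and syngraft for Cxcl10, 85.8% for Cxcl9 and 36.3% for Cxcr3. For Irf1 the value was 61.2%. Computed with the syngraft at the floor, it was at least 83.9% for Cxcl11, 74.2% for Socs1, 48.7% for Gzmb and 38.2% for Ifng. On the same basis it was at least 22.2% for Cd3g and at least 8.41% for Tbx21. A syngraft level below the floor would raise each of these shares, so their contrast with Cxcl9 and Cxcl10 depends partly on the floor. The ranks of Cxcl9 and Cxcl10 ran from 1 to 7 over the other scalings, floors and summaries tried, and that of Cxcl11 from 2 to 40, the last with the mean of both its probe sets. By its dimmer probe set alone, which was below the floor on both arrays, Cxcl11 had no difference. The rank plot shows the ligands at the head of the CsA curve and Cxcr3 further down it.

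**Figure D3:**
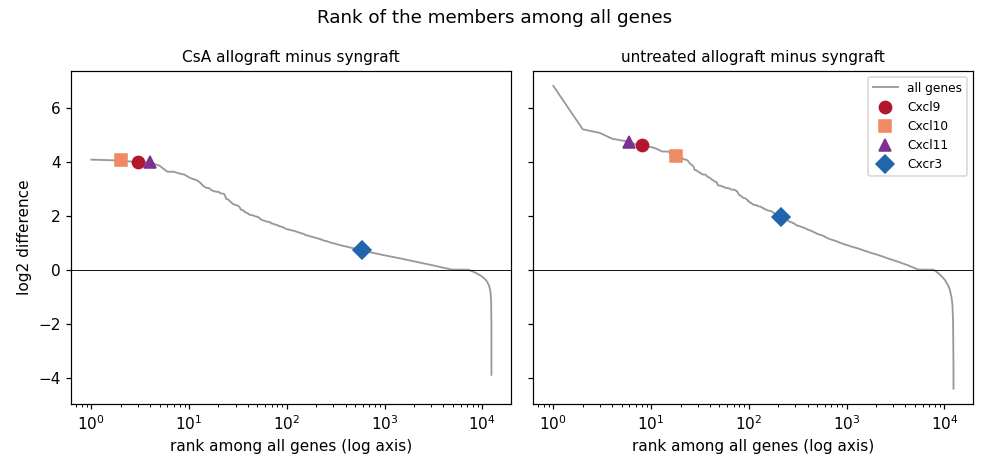
All 12393 genes ranked by log2 difference from the syngraft (rank on a log axis, highest first), in the CsA allograft (left) and the untreated allograft (right); coloured points are the 4 genes and Cxcl11 is a lower bound. With CsA the ligands hold ranks 2 to 4 at log2 differences of 3.97 to 4.04, and Cxcr3 lies at 0.71.

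All 4 genes were likewise at least 2-fold above the syngraft in the other treated allografts, where 7.07% of all genes were with ABH4, 6.15% with BH4 and 5.95% with NIL. Cxcl9 was 26.8-fold higher with ABH4, 24.7-fold with BH4 and 23.3-fold with NIL. Cxcl10 was 22.5-fold, 19.1-fold and 15.7-fold higher in the same order, and Cxcl11 at least 29.2-fold, at least 14.6-fold and at least 19.9-fold. Cxcr3 was 4.11-fold, 2.69-fold and 4.34-fold higher. With the mean over both its probe sets the log2 difference of Cxcl11 from the syngraft was 2.44 with ABH4, 1.94 with BH4, 1.98 with CsA, 2.16 with NIL and 2.57 in the untreated allograft, where the brighter probe set gave at least 4.73 and the dimmer one at least 0.41. Receptor RNA was closest to the syngraft with CsA.

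The ABH4, BH4 and NIL allografts are each set against the same untreated allograft array, so a chance deviation of that array enters all 3 comparisons. In the ABH4 allograft none of the 4 genes was at least 2-fold different, where 0.694% of all genes were higher and 0.282% lower. The log2 differences were 0.12 for Cxcl9, 0.28 for Cxcl10, 0.14 for Cxcl11 and 0.08 for Cxcr3 (median 0.13). The sign for Cxcl11 turned to -0.13 with the mean of both its probe sets. Ifng was 1.26-fold higher with ABH4, at 738, against 586 in the untreated allograft, and Tbx21, Irf1 and Socs1 had log2 differences of 0.11, -0.19 and 0.03.

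In the NIL allograft none of the 4 genes was at least 2-fold different either, where 1.33% of all genes were higher and 0.791% lower. The log2 differences were -0.09 for Cxcl9, -0.24 for Cxcl10, -0.41 for Cxcl11 and 0.15 for Cxcr3 (median -0.16). On the deposited values the first turned to 0.06 and the third was -0.27, and the median turned to 0.02 after quantile normalization. Socs1 was 1.60-fold lower and Ackr3 1.86-fold lower with NIL, while Ifng had a log2 difference of -0.27 and Tbx21 of 0.25.

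In the BH4 allograft Cxcl11 and Cxcr3 were lower than in the untreated allograft while Cxcl9 and Cxcl10 were close to it. Cxcl11 was 1.83-fold lower and Cxcr3 1.45-fold lower, with log2 differences of -0.87 and -0.54. Cxcl9 and Cxcl10 had -0.0037 and 0.05. None of the 4 was at least 2-fold lower, where 0.42% of all genes were, and none at least 2-fold higher, where 1.54% were; 1 was at least 1.5-fold lower, where 3.35% were. Of all genes 0.863% were at least as low as Cxcl11 and 4.28% at least as low as Cxcr3. Ifng was 1.46-fold lower and Tnf 1.56-fold lower with BH4, while Irf1 and Socs1 had log2 differences of -0.10 and 0.02. Tbx21 had -0.10, and Il12rb1 was 1.55-fold higher with BH4. Beside this, the 7 T cell genes summed to 1399 with BH4, against 1819 in the untreated allograft, the 4 NK cell genes to 616 against 927, and the salivary genes to 10479 against 146. The 6 fibroblast genes summed to 13930 with BH4, against 3018 in the untreated allograft, with 6 of 6 at least 2-fold higher. The parts of these cells and tissues in the result were not tested.

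**Figure D4:**
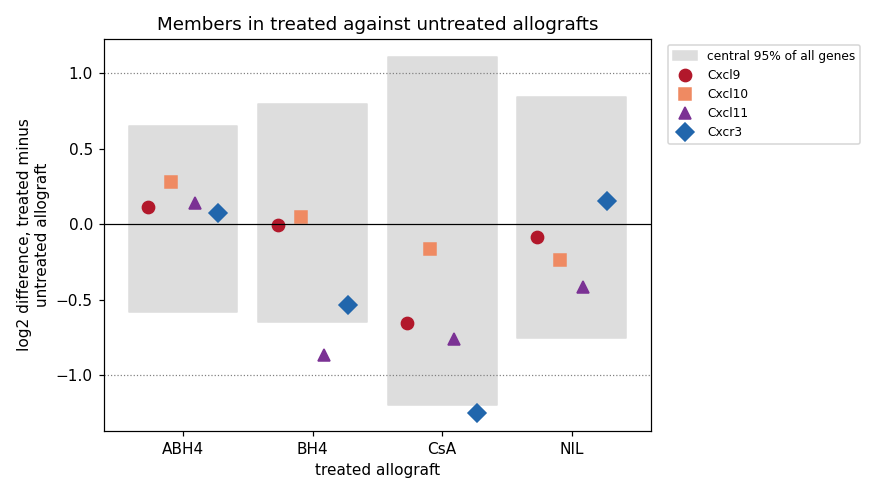
Log2 difference of the 4 genes in each treated allograft from the untreated allograft (1 array each); grey boxes span the central 95% of all 12393 genes and dotted lines mark 2-fold. Cxcr3 with CsA (-1.25) and Cxcl11 with BH4 (-0.87) lie outside the grey box of their comparison, and the other points lie inside.

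ABH4 and BH4 differ by an amino group at position 4 of the pterin ring, where the natural cofactor carries oxygen, and they were given at the same dose and interval, which makes them the 1 pair of related compounds that can be compared at a matched dose. Cxcl11 was 2.01-fold higher with ABH4 than with BH4 and Cxcr3 1.53-fold higher. Cxcl10 and Cxcl9 had log2 differences of 0.23 and 0.12. Of the 4 genes 1 was at least 2-fold higher, where 0.46% of all genes were, and none at least 2-fold lower, where 0.96% were; 2 were at least 1.5-fold higher, where 3.24% were. Ifng was 1.84-fold higher with ABH4 and Klrd1 1.98-fold, whereas Il12rb1 was 1.76-fold lower. The T cell genes summed to 2018 with ABH4 and 1399 with BH4. The salivary genes summed to 174 with ABH4 and 10479 with BH4, and the fibroblast genes to 6784 and 13930. The 2 arrays thus differed in tissue markers as well as in compound, and the part of those tissues was not tested. With 1 array each there is neither a test nor an interval for these differences, and the dimmer Cxcl11 probe set gave a log2 difference of -0.01. CsA and NIL were given at other doses or intervals, so differences between their values and these are not comparisons of compounds at a matched dose.

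Genes with the pattern most like each of the 4 across the arrays were found by the root mean square of differences over 5 values, each array's log2 difference from the untreated allograft. For Cxcl9 the nearest were Gbp2 (0.19), H2-D1 (0.21), Parp3 (0.27), H2-K1 (0.30) and Gbp6 (0.37). For Cxcl10 they were H2-D1 (0.28), Parp3 (0.29), H2-K1 (0.32), Tubb3 (0.39) and Ifi47 (0.39). For Cxcl11 they were BC023105 (0.39), Gbp2 (0.45), Cd274 (0.46), Gbp6 (0.46) and Parp3 (0.48). Gbp2 and Gbp6 are guanylate-binding proteins, H2-D1 and H2-K1 class I molecules, Ifi47 an interferon-inducible GTPase and Cd274 the checkpoint ligand PD-L1. Class I genes are near-identical to one another and vary between strains, so their signals are uncertain in a graft of unnamed strains. The nearest genes to Cxcr3 were others: H2-Ea (0.09), Lcp1 (0.11), H2-Ab1 (0.14), Cd48 (0.16) and Dnase1l3 (0.16). Lcp1 and Cd48 are leukocyte genes, and H2-Ab1 and H2-Ea encode class II chains. Class II genes also vary between strains, so the signals of H2-Ab1 and H2-Ea are uncertain here too. In the syngraft H2-Ea read 38.6, near the floor, and Dnase1l3 and Tubb3 read 10.1 and 21.1, below it, so these distances depend partly on the floor. By the same measure the ligands lay 0.31 to 0.55 from one another and 1.16 to 1.29 from Cxcr3. All arrays are shared by these values. The distances of the ligands from Cxcr3 came mostly from the syngraft array. The untreated allograft exceeded it by log2 differences of 4.21 to 4.73 for the ligands and 1.96 for Cxcr3. In the other distances the part of the syngraft array varied and could be small.

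Markers of cells that can make the ligands were summed in the same way. The 8 macrophage and monocyte genes summed to between 8224 and 11434 in the 5 allografts, or up to 10244 without the BH4 array, against 8345 in the syngraft. Lyz2 and Csf1r, lysozyme and a growth factor receptor, made up most of these sums. In the untreated allograft 3 of those 8 exceeded the syngraft by 2-fold or more and 0 lay that far below it: Msr1, a scavenger receptor, at 5.80-fold, and Itgam, an integrin chain, and Ccr2, a monocyte chemokine receptor, each at 2.41-fold. With CsA these 3 genes were lower than in the untreated allograft, Msr1 by 5.02-fold, Ccr2 by 2.06-fold and Itgam by 1.93-fold. Msr1 read 167 with CsA, against 838 in the untreated allograft and 145 in the syngraft. Of the 8 genes, 2 were at least 2-fold lower with CsA and 0 higher (median log2 difference -0.23). Adgre1 and Lyz2 went the other way, with log2 differences of 0.43 and 0.13 with CsA. In the untreated allograft against the syngraft they had -0.28 and -0.20. Endothelial genes summed to 787 in the untreated allograft and 1374 in the syngraft, and 3 of 5 were at least 2-fold lower, Tek by 2.68-fold, Vwf by 2.67-fold and Kdr by 2.24-fold. Fibroblast genes summed to 3018 in the untreated allograft and 22735 in the syngraft, with 6 of 6 at least 2-fold lower, among them Postn, a matrix protein, by 14.3-fold and Lum, a collagen-binding proteoglycan, by 11.7-fold. The fibroblast sum was 6784 with ABH4, 13930 with BH4, 19117 with CsA and 2977 with NIL, and 6 of 6 genes were at least 2-fold above the untreated allograft with ABH4, with BH4 and with CsA. The endothelial sum was 1095 with CsA and between 732 and 844 with the other 3 treatments. The 3 measured neutrophil genes summed to 334 with CsA, against 917 in the untreated allograft and 1241 in the syngraft. All 3 were at least 2-fold lower with CsA than without, S100a8, a calcium-binding protein of neutrophils, by 3.63-fold. Between untreated allograft and syngraft they did not share one direction. S100a8 and S100a9 had log2 differences of -0.66 and -1.18, whereas Csf3r was 1.92-fold higher in the untreated allograft. The 3 B cell genes summed to between 97.2 and 170.4 over all 6 arrays, where the lowest was the BH4 array and the next 112. The part of any of these cells in the ligand signals was not tested.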

How the data were processed

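For 6 arrays, 1 per group, the authors deposited 22690 values of signal intensity, 1 per probe set. The values are linear, and every array's mean after trimming 2% from each end was 200.1, so the authors had scaled the arrays to a common level. The scanner, summarisation and background steps are not given in the sources used here. From these values each array was brought to a common median, controls left out (22626 probe sets), values under the 30th percentile (34.8) were raised to it, and logarithms to base 2 were formed. Each of 12393 genes was represented by the probe set with the highest mean among those annotated to that gene alone. The other probe sets, 691 listed for several genes and 1555 for none, were left out. A fold against an array at the floor is written "at least". With 1 array per group no test was possible, and the number of arrays limits the precision. Genes are counted at least 2-fold or 1.5-fold different, beside the share of all genes. Of 139 entries in 17 gene lists 129 had a probe set. The rule named, per list, the 3 largest differences of untreated allograft from syngraft and the 2 largest of CsA from untreated allograft, the 5 nearest patterns per member, and genes of the pathway core. The members and lists were chosen with earlier results of these data known. The procedure was tested on simulated data. Symbols looked up in RefSeq by gene identifier needed 0 updates. Alternatives were the deposited scaling, quantile normalization, floors at the 10th and 50th percentile, the mean over probe sets, a filter on dim genes and a pseudocount of 50. Python 3.11.15, numpy 2.4.6 and pandas 2.3.3 were used.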

Additional observations from a re-analysis of the deposited data

Results flagged for a closer look

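With 1 array per group no value could be set against the spread of its own group. The cases below are pairs of treated allografts that lay on opposite sides of the untreated allograft and at least 2-fold apart. In each case the difference was not tested. Cxcl11 had a log2 difference from the untreated allograft of 0.14 with ABH4 and -0.87 with BH4, 1.01 apart. Cxcr3 had 0.08 with ABH4 and -1.25 with CsA, 1.33 apart. For Cxcr3 the CsA value of -1.25 lay 1.40 below the NIL value of 0.15 (CsA minus NIL, -1.40). Cyclosporin A was given at another dose and interval than ABH4 and NIL, so the Cxcr3 values stand side by side and do not compare the compounds at a matched dose.

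The dimmer Cxcl11 probe set, which is not the one that stands for the gene above, had a signal of 46.1 on the untreated allograft array, against 14.1 on the syngraft array, where the floor is 34.8. It read 35.1 with BH4 and between 13.8 and 28.7 with the other 3 treatments.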

How the results depend on the processing

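No paired analysis was possible because each group had 1 array and no replicate number is shared. A value counts as changed here when it moved by over 1.5-fold (0.58 on the log2 scale), since no replicate spread exists. Of 480 values for the 4 genes and their summaries, 417 did not change by that measure, 62 did and 1 turned its sign as well: Cxcl11 in ABH4 against BH4, from its dimmer probe set, at -0.014. The cause was not tested, but that probe set was below the floor with ABH4. In all 9 values changed sign, most of them near 0.

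The median log2 difference of the 4 genes from the syngraft depended on the floor and on Cxcl11. With the floor at the 50th percentile it was 4.00 for ABH4, 3.38 for BH4, 3.33 for CsA, 3.47 for NIL and 3.79 for the untreated allograft. With the mean over probe sets it was 3.46, 3.10, 2.98, 3.06 and 3.39 in the same order, with a pseudocount of 50 it was 3.81, 3.22, 3.17, 3.30 and 3.61, and with the dimmer Cxcl11 probe set, chosen after seeing the data, 3.26, 2.84, 2.34, 3.04 and 3.09. The count of genes at least 2-fold different was 0 in place of 1 for CsA against the untreated allograft with the pseudocount, where Cxcr3 had -0.95. For ABH4 against BH4 it was 0 with the mean over probe sets, with the pseudocount and with the dimmer probe set. Without the BH4 array, also chosen after seeing the data, the 4 genes were still at least 1.5-fold above the syngraft on each allograft array.

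Background counts moved more. All genes at least 2-fold different numbered 901 for CsA against the untreated allograft, 1995 with the floor at the 10th percentile, 522 at the 50th and 461 with the pseudocount. For the untreated allograft against the syngraft these were 1448, 2673, 913 and 860, for ABH4 121, 978, 34 and 40, for BH4 243, 1214, 108 and 119, for ABH4 against BH4 176, 1074, 60 and 76, and for NIL 263, 1363, 47 and 63 (175 with the mean over probe sets). On deposited values without rescaling, higher and lower calls were 599 and 327 for CsA, against 398 and 503 as reported, 269 and 53 for NIL, against 165 and 98, and 633 and 860 for the untreated allograft against the syngraft, against 852 and 596. Against the syngraft they were 700 and 774 for ABH4, against 876 and 568 as reported, and 568 and 654 for BH4, against 762 and 434. Signals near the floor limit the dimmer Cxcl11 probe set, Dpp4 and syngraft values.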
